A study of Mus musculus with 2 samples.

Results

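The 10 genes described here form the core of the circadian clock and its first layer of output: Arntl on the activating side, Per1, Per2, Per3, Cry1, Cry2 and Nr1d2 on the repressing side, and the output factors Dbp, Tef and Hlf. They were taken by gene symbol from the array annotation and were measured by 18 of the 22690 probe sets, as 10 of 12394 genes named by a probe set of 1 gene. No probe set that names several genes held any of them. Arntl, Per1, Cry1 and Cry2 had 1 probe set each, Per2, Nr1d2, Dbp and Hlf had 2, and Per3 and Tef had 3.

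Epididymal white adipose tissue, the fat pad next to the epididymis and testis, was compared between male mice without PPARβ/δ, the nuclear receptor encoded by Ppard, and wild-type males, all fed chow. RNA of 5 animals per genotype was combined into 1 pool, and each pool was measured on 1 Affymetrix array. The wild-type sample is labelled 129S1/SvJae and 12 to 16 weeks old. The knockout sample is labelled as a mixed Sv129/C57BL/6 background and 12 weeks old, while the series description has wild-type littermates as controls and an age of 3 months. The knockout label names no Cre driver or tissue, and the sources used here do not give the hour at which tissue was taken. With 1 array per genotype there is no spread between replicates, no test of genotype and no p-value, and the number of arrays limits the precision of every value below.

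The mammalian clock is a feedback loop. CLOCK, or its relative NPAS2, pairs with BMAL1, the protein of Arntl, and activates genes that carry E-boxes, among them the Per and Cry genes, Nr1d1, Nr1d2 and Dbp. PER and CRY proteins then repress CLOCK and BMAL1, and the REV-ERB receptors made from Nr1d1 and Nr1d2 repress Arntl. DBP, TEF and HLF are related basic leucine zipper factors that bind D-boxes and pass the rhythm on to metabolic genes, against the repressor NFIL3. In fat, as in liver, Arntl messenger RNA is known to peak roughly opposite to Dbp, and Cry1 later than most E-box genes.

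Promoter sequence of the members was read from RefSeq (GRCm38.p6), which gave 12 gene starts for 9 of the 10 genes, Per2 being the member with no entry. Over the 250 bases before each start, both strands were searched for the E-box CACGTG, the related E-prime box CACGTT, the D-box as TTATGNAA and as TTATGTAA (every match of the second is also a match of the first), and the RORE bound by REV-ERB and ROR receptors as ANTAGGTCA or ANTGGGTCA. The members with the lowest differences, Dbp and Tef, and the cryptochromes, which differed in opposite directions, are given 5′ to 3′ on the strand of the gene, with each motif match in capitals. For Dbp the stretch is chr7:45704997-45705246 on the plus strand. For Tef the stretches lie before 2 starts, at chr15:81802423-81802672 and chr15:81811164-81811413, both on the plus strand. Those of Cry1 and Cry2 are chr10:85185055-85185304 and chr2:92434070-92434319, both on the minus strand.
Dbp: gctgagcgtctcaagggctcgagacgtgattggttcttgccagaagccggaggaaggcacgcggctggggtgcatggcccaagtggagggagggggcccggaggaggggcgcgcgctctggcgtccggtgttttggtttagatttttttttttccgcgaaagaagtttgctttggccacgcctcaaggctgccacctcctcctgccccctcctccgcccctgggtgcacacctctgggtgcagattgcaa
Tef start 1: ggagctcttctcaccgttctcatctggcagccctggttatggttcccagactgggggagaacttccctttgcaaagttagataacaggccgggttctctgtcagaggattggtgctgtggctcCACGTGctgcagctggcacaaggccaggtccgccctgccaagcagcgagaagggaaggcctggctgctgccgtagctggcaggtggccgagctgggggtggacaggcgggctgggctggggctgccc
Tef start 2: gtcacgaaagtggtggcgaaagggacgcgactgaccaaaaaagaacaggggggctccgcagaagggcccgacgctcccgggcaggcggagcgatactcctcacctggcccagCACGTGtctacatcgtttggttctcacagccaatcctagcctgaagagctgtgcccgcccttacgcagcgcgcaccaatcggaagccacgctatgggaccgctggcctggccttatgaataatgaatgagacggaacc
Cry1: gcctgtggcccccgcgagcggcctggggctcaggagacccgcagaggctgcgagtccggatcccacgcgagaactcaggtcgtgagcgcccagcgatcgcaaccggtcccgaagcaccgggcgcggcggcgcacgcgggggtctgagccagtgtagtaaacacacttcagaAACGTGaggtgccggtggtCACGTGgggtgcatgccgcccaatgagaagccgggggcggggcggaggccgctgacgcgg
Cry2: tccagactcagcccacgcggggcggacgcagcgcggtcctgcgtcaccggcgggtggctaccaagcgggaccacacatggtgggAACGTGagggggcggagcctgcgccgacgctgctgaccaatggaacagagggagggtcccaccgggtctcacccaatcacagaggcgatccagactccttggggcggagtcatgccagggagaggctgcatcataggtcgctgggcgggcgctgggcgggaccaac

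The E-box matched in 3 of the 9 members with a promoter entry, against 6.86% of all 27025 genes with one. By entry it matched in 4 of 12, against 6.02% of all 32851 promoter entries. The matches lay at both starts of Tef, in Cry1 and at 1 of the 2 starts of Per1. The match of Tef began 127 bases before the first start and 138 bases before the second. Cry1 held an E-box 60 bases and an E-prime box 79 bases before its start, and Cry2 an E-prime box at 166 bases; 3.85% of all entries held an E-prime box. D-boxes with 1 free base matched in Per1, at 24 bases, and in Per3, at 158 and 205 bases, against 3.07% of all entries. Both matches of Per3 were the full TTATGTAA, which 0.82% of entries held. No member entry held either form of the RORE, which 1.21% of all entries did. In Dbp, Hlf, Nr1d2 and Arntl no searched motif was found in these windows, which says only that those letters are not there. A match is a description of sequence and was not tied to any value on the arrays.

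**Figure D1:**
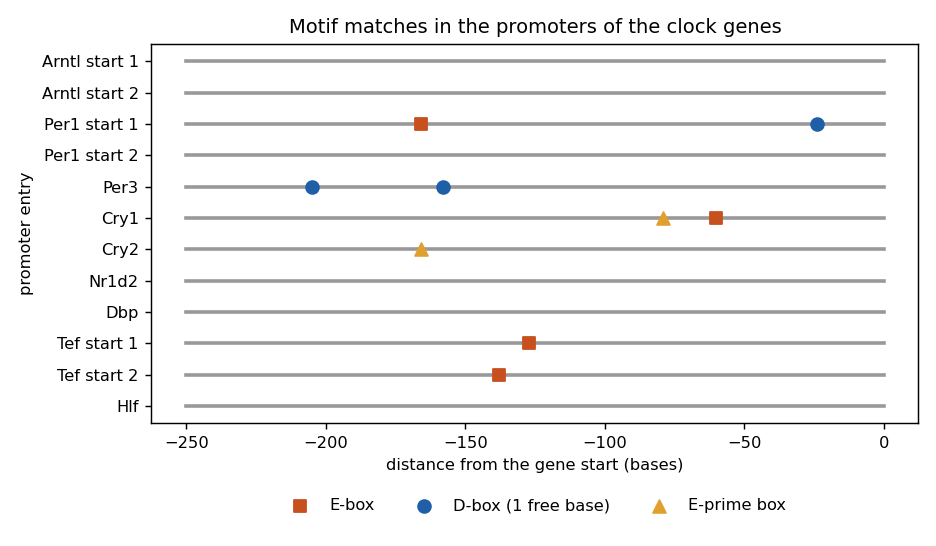
Motif matches in the 250 bases before each RefSeq gene start of the clock genes; the horizontal axis is the distance of the first base of a match from the start in bases, and each line is 1 promoter entry. E-boxes (squares) lie at both starts of Tef, in Cry1 and at 1 start of Per1, and the lines of Dbp, Hlf, Nr1d2 and Arntl carry no match.

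Where a pair of intensities is given, that of the wild-type pool comes first. Ppard, the deleted gene, was under the intensity floor on both arrays (6.58 wild type, 6.27 knockout, 1 probe set), so it gave no check of the labels. A value was treated as above the floor at an intensity of 32 (log2 of 5). A gene was compared when a probe set of it reached the floor on at least 1 array, which 6533 genes did, and the gene was represented by its brightest such probe set. Each difference is the knockout log2 intensity minus the wild-type one, with a median of -0.08 over the 6533 genes. Adipocyte markers were present in both pools (Adipoq, adiponectin, at 10259 and 8030), and epididymis and germ cell markers were present too. The log2 differences of probe sets of the same gene had a median SD of 0.25 over 2137 genes with several, a spread between probe sets that says nothing about variation between animals or pools.

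The output genes were lower in the knockout pool, and 2 of these 3, Dbp and Tef, were among its lowest differences. Dbp, a direct target of CLOCK and BMAL1, had an intensity of 389 in wild-type RNA and of 64.4 in knockout RNA at its brighter probe set. The second probe set of Dbp was at 142 and 29.7, the latter below the floor. Both probe sets placed the knockout pool lower, with log2 differences of -2.60 and -2.25 as measured. The first is a 6.04-fold difference and the second at least 4.42-fold with the knockout value set to the floor. Among the 6533 genes Dbp ranked 14 from the lowest.

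Tef, the second D-box factor, was at 352 and 93.1 at its brightest probe set, 3.78-fold lower in the knockout pool (log2 -1.92), and ranked 70 from the lowest. A further probe set of Tef was at 53.4 and 22.2, at least 1.67-fold lower, and the third, at 9.72 and 7.09, was below the floor on both arrays. The probe sets of Tef pointed the same way. As measured, the log2 differences of those that reached the floor had an SD of 0.46, against 0.24 for Dbp. In each gene 1 of these probe sets had a knockout value below the floor, so whether they differ in size is not settled. Hlf, the third factor of the family, was at 39.1 (wild type) and 20.7 (knockout). Its knockout value was below the floor, so the difference is at least 1.22-fold (log2 -0.92 as measured). Hlf was compared through its wild-type value alone, and its second probe set (17.6 and 12.0) was below the floor on both arrays.

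**Figure D2:**
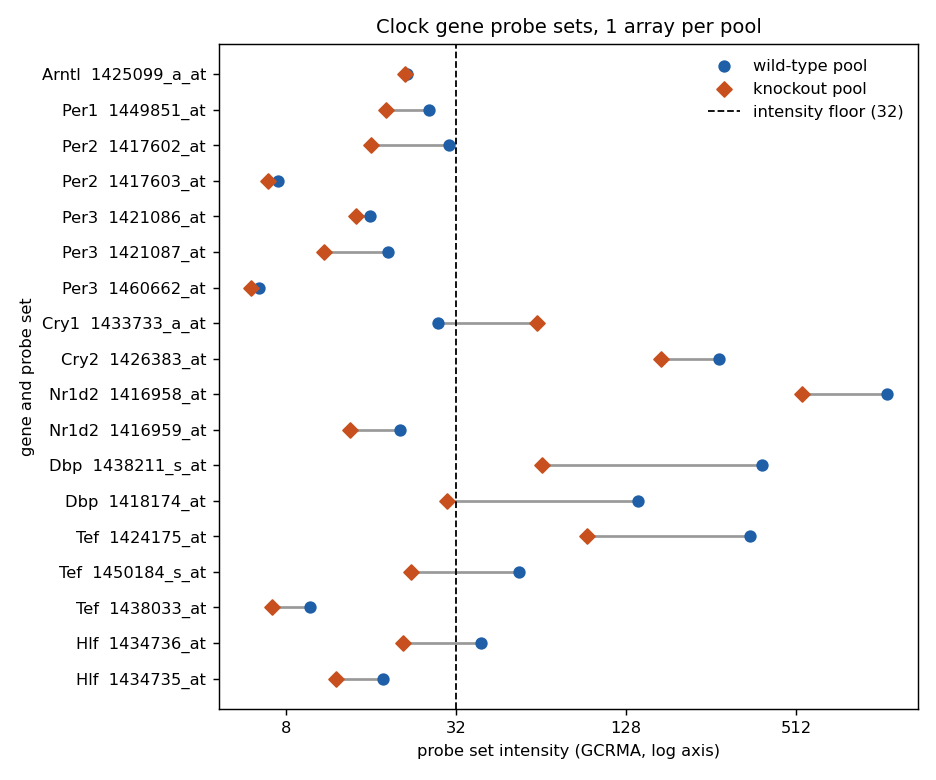
Intensity of all 18 probe sets of the 10 clock genes on a log axis, 1 array per pool (circles, wild type; diamonds, knockout), with the floor of 32 as a dashed line. The knockout diamond lies left of the wild-type circle for 17 probe sets, furthest for Dbp and Tef, and right of it only for Cry1.

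On the repressing side the members did not all differ the same way. Nr1d2, which encodes REV-ERBβ, had an intensity of 1074 in wild-type RNA and 538 in knockout RNA, a log2 difference of -0.998, just short of 2-fold. Its second probe set was below the floor on both arrays, at 20.2 and 13.5. Cry2, a cryptochrome that represses CLOCK and BMAL1, was at 274 and 170, 1.61-fold lower (log2 -0.69). It is measured by 1 probe set.

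Cry1, the other cryptochrome, was the member that was higher in the knockout pool. Its wild-type intensity of 27.6 was below the floor and its knockout intensity was 61.9, a difference of at least 1.93-fold (2.24-fold, log2 1.16, as measured). It was compared through its knockout value alone. With its wild-type value set to the floor, the ratio of Cry1 to Cry2 differed between the pools by a log2 value of at least 1.64, and the ratio of Cry1 to Dbp by at least 3.55. Cry1 is measured by 1 probe set, so no second one could be set beside it.

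The Per genes and Arntl were too dim to compare. Over their 7 probe sets the wild-type intensities ran from 6.38 to 30.1 and the knockout intensities from 5.98 to 21.0, all below the floor. Per1, the period gene that also responds to glucocorticoids, was at 25.7 and 18.1. Per2 was at 30.1 and 15.9 at its brighter probe set and at 7.45 and 6.90 at the other. The probe sets of Per3 were at 18.4 and 10.9, at 15.8 and 14.2, and at 6.38 and 5.98. Arntl, the member of the activating limb, was at 21.5 and 21.0. These values lie where the background correction sets the level, and no fold is given for them.

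Counted over all 18 probe sets, 17 were lower in the knockout pool by any amount. Over all 20393 probe sets that name 1 gene the share was 59.6%. Among the 10 member probe sets below the floor on both arrays all were lower, beside 62.1% of the 10756 such probe sets of any gene. Probe sets of the same gene share their transcript and all of them share the same 2 pools, so the 18 are not independent. Of the 6 member genes that reached the floor, 5 were lower, beside 55.5% of all 6533. At 2-fold, 2 were lower (Dbp and Tef) beside 9.14% of all genes, and 1 was higher (Cry1) beside 13.7%, all as measured. With values below the floor set to it, Cry1 was short of 2-fold, so 0 members were 2-fold higher and 2 lower, beside 743 and 522 of the 6533 genes. Hlf and Cry1 reached the floor only in the pool where they were higher. The median log2 difference of the 6 was -0.96. The members that did not reach the floor are Arntl, Per1, Per2 and Per3, so the 6 do not stand for all 10.

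**Figure D3:**
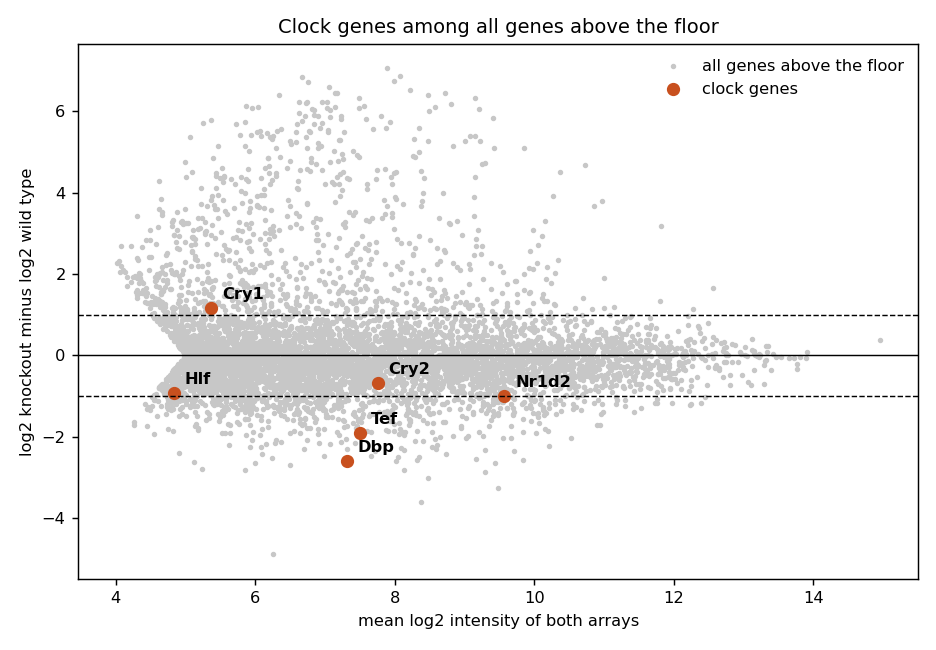
Log2 difference of the knockout from the wild-type pool against mean log2 intensity for the 6533 genes that reached the floor (grey), with the 6 clock genes among them in orange and dashed lines at 2-fold. Dbp (-2.60) and Tef (-1.92) lie at the lower edge of the cloud, Nr1d2 on the lower dashed line, and Cry1, as measured, above the upper one.

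Whether the pools differed in clock phase can be asked by setting genes that peak near Dbp against genes that peak roughly opposite to it. Of 8 measured genes on the Dbp side (Dbp, Tef, Hlf, Per1, Per2, Per3, Nr1d1 and Nr1d2), 4 reached the floor and all 4 were lower in the knockout pool, with a median of -1.46, beside 55.5% of all genes. Hlf is among the 4 and reached the floor only through its wild-type value. Nr1d1, which encodes REV-ERBα, was at 29.6 and 16.8, below the floor on both arrays. Of the 4 genes on the opposite side, Clock alone reached the floor. Its intensities were 93.7 (wild type) and 57.3 (knockout), a log2 difference of -0.71, at a gene whose messenger RNA is known to cycle only weakly in many tissues. Its second probe set, at 30.5 and 22.2, was below the floor.

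The remaining genes of the opposite side gave no measurable level. Arntl was at 21.5 and 21.0, Nfil3, the D-box repressor, at 11.9 and 9.59, and Npas2, the stand-in for CLOCK, at 11.8 and 12.5 at its brighter probe set. No gene of the opposite side was therefore higher in the knockout pool above the floor, and 3 of the 4 were below it. The output genes had a median of -1.92 (3 genes) and the repressing limb of -0.69 (3 of 6 genes). Clock phase was not tested, since each genotype was 1 pool with no hour of collection given and Arntl was not measurable.

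Beyond the members, a wider list of 30 clock genes was examined: partners and activators, further repressors, enzymes that modify clock proteins, and rhythmic outputs. Of these, 23 had a probe set of their own and 16 reached the floor. Among the 16, 12 were lower and 4 higher, beside 55.5% lower over all genes. As measured, 2 were lower and 4 higher by 2-fold or more, beside 9.14% and 13.7% of all genes. With values below the floor set to it, with a floor of log2 6 or with the intensity trend removed, 3 were 2-fold higher. The median was -0.36, beside -0.08 over all genes compared. The 2 activators above the floor were Clock and Rora, and the repressor above it was Bhlhe40, none of them 2-fold different.

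Among the 7 enzymes acting on clock proteins that reached the floor, 4 were lower, beside 55.5% of all genes, and the median was -0.29. The other 3 were each higher by 2-fold or more, beside 13.7% of all genes. Usp2, a deubiquitinase of clock proteins that is also abundant in testis, had intensities of 201 (wild type) and 1713 (knockout), 8.53-fold higher, and its second probe set was at least 2.59-fold higher. Gsk3b, a kinase that phosphorylates several clock proteins, was at 39.7 and 180, 4.53-fold higher. Btrc, which targets phosphorylated PER proteins for destruction, was at 87.0 and 212, 2.43-fold higher, its second probe set being below the floor. Fbxw11, the close relative of Btrc, was not: it was at 2241 and 1554 (log2 -0.53). A further probe set of Fbxw11 was at 407 and 334 (log2 -0.29). Its dimmest was at 31.5, below the floor, and 37.4. The casein kinase gene Csnk1d, whose product marks PER proteins for turnover, was at 321 and 262 (log2 -0.29), and its 5 probe sets ran from -0.92 to 0.03.

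Of the 6 further output genes above the floor, 5 were lower, beside 55.5% of all genes, with a median of -0.90. Tsc22d3, a leucine zipper gene that glucocorticoids induce, was at 913 and 265, 3.45-fold lower, and a further probe set was 2.33-fold lower. Klf10, a Krüppel-like factor under clock control, was at 311 and 102, 3.06-fold lower. Nampt, at 434 and 217, was just short of 2-fold lower (log2 -0.999). Klf9 was 1.75-fold lower at its brightest probe set, and its others above the floor were 2.75-fold, 2.59-fold and 1.05-fold lower. Wee1, a cell cycle kinase with E-boxes in its promoter, had a wild-type intensity of 19.9, under the floor, and a knockout intensity of 45.6, a difference of at least 1.43-fold, while its second probe set was below the floor at 29.2 and 29.0.

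These differences were measured in pools whose cell markers also differed. Each of the 20 germ cell markers was higher in knockout RNA by 2-fold or more. Their median difference was 5.12 (4.59 with values below the floor set to it), their summed intensity was 3933 (wild type) and 75716 (knockout), and 6 of them did not reach the floor in wild-type RNA. The higher values of Cry1, Usp2, Gsk3b, Btrc and Wee1 were measured beside these transcripts, whose part in them was not tested. Of 9 measured epididymis markers 8 were higher, with a median of 0.30 and summed intensities of 53048 and 61562.

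Adipocyte markers differed in the same direction as the lower clock genes. Of 14 measured markers 13 were lower, 8 of them by 2-fold or more, with a median of -1.12 and summed intensities of 78478 and 50342. Macrophage markers had a median of -0.86 with 8 of 8 lower, and endothelial markers -1.04 with 6 of 7 lower. Fewer cells of a type and less RNA per cell cannot be told apart in whole tissue. Their part in the clock values was not tested, but the members can be placed among them. At the brightest probe set of each member, only 1 adipocyte marker, leptin (Lep), was lower than Dbp. Lep and Pparg, 2 markers, were lower than Tef. These places depend on the probe set. At the dimmer probe set of Dbp (-2.25 as measured) Pparg (-2.35) was lower too. At the further probe set of Tef that reached the floor (-1.27 as measured) Slc2a4 (-1.53) was lower too. As measured, Nr1d2 and Hlf each lay above 8 of the 14 adipocyte markers and below 6, and Cry2 above 10. Cry1 was higher than all 14.

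Measured against the adipocyte median, Dbp was lower by a further 1.47 and Tef by a further 0.79, whereas Nr1d2 and Cry2 were higher than that median by 0.13 and 0.44. The 14 markers behind that median ranged from -2.87 (Lep) to 0.96 (Aqp7), with quartiles of -1.22 and -0.45. A place above or below it therefore depends on which markers are in the list. Hlf and Cry1 each had a value below the floor. Hlf lay above the median by 0.21 as measured and by 0.84 with that value set to the floor, and Cry1 by 2.29 and by at least 2.08. Among 11 transcription factors and nuclear receptors of fat that reached the floor, all were lower, with a range from -2.35 (Pparg) to -0.12 (Cebpd). As measured 6 were lower by 2-fold or more and the median was -1.20, the value of Nr1h3, which was below the floor in knockout RNA. With that value set to the floor, 5 were 2-fold lower and the median was -0.90. At the brightest probe set of each, Dbp was lower than all 11, and Tef lower than 10 of them. At its dimmer probe set (-2.25 as measured) Dbp lay above Pparg. At its further probe set that reached the floor (-1.27 as measured) Tef lay above Pparg, Klf15 (-1.45) and Bcl6 (-1.28). Both of these dimmer probe sets had a knockout value below the floor. The members, with 5 of 6 lower, had a median of -0.96 as measured and of -0.84 with values below the floor set to it. No difference between these lists was tested.

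**Figure D4:**
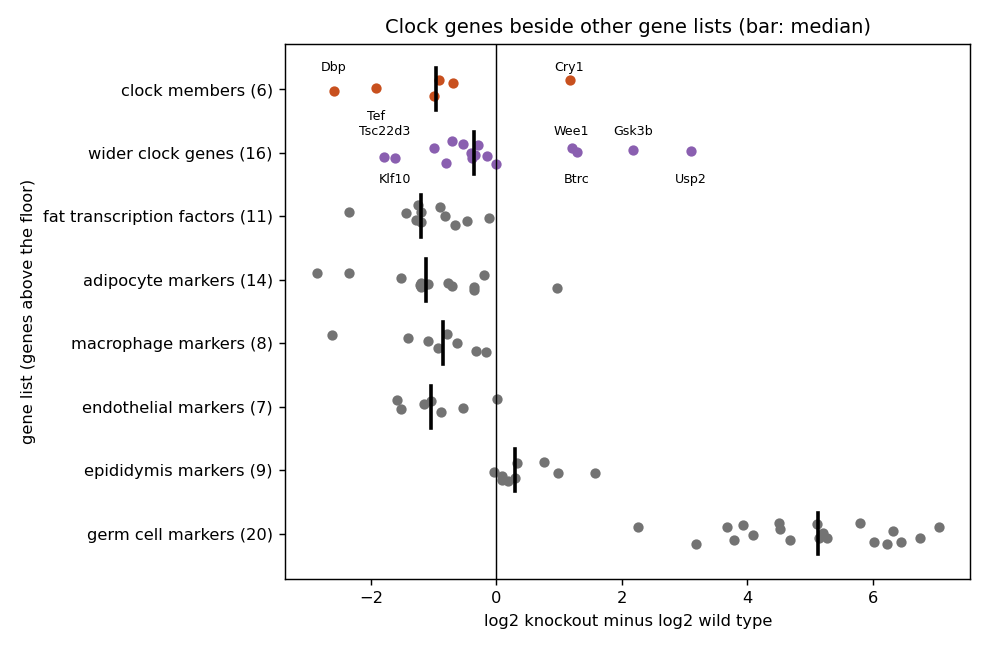
Log2 difference of the knockout from the wild-type pool for genes above the floor in 8 lists, each point a gene and each bar the median of its list; clock genes at least 2-fold different are named. Medians are -0.96 for the clock members and -0.36 for the wider clock genes, -1.12 for adipocyte markers and 5.12 for germ cell markers.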

How the data were processed

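The series holds 1 array of a wild-type and 1 of a knockout pool. The authors deposited an intensity for each probe set, computed with GCRMA 2.20 according to the submitters' processing notes. Values from 1.91 to 36322 show a linear scale, so log2 was taken first. GCRMA draws dim probe sets towards a common background, which affects values near the floor. Of 22690 probe sets, 20393 named 1 gene, 691 several and 1606 none; symbols were updated by Entrez identifier to GRCm38.p6 gene records.

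Members and lists were chosen with earlier results of these data known. Named genes are the 10 members, Clock, Npas2, Nr1d1 and Nfil3. Also named are other wider clock genes at least 2-fold different or with probe sets above the floor of opposite sign. The planned rule on signs set no floor. As applied it left out Csnk2a1 and Csnk1e, whose probe sets differ in sign only through sets below the floor on both arrays. Other genes named, including Rora, Bhlhe40 and single markers, were chosen after their values were seen. The 2 arrays give no measure of likeness between genes. Folds with a value below the floor set it to the floor ("at least"). The scripts (Python 3.11.15, pandas 2.3.3, statsmodels 0.14.6) were tested on simulated data. Alternatives changed the floor (log2 4, log2 6, none), dim values, centring, intensity trend and probe set choice.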

Additional observations from a re-analysis of the deposited data

How the results depend on the processing

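Under 8 other settings of floor, scaling and probe set choice, no member above the floor, and none of Clock, Usp2, Gsk3b, Btrc, Klf10, Tsc22d3, Wee1, Csnk1d and Fbxw11, changed direction. Most of these settings could hardly change a direction. Changing the floor only selects probe sets, and it left these differences as they were wherever the gene was kept. Setting dim values to the floor can shrink a difference but not turn it, and centring moves every gene by the same small amount. Averaging cannot alter a gene with 1 kept probe set. Dbp ranged from -2.60 to -2.25, Tef from -1.92 to -1.59, Nr1d2 from -0.998 to -0.83 and Cry2 from -0.69 to -0.55. Hlf ranged from -1.24 to -0.29, Cry1 from 0.95 to 1.26 and Wee1 from 0.51 to 1.28, and these 3 did not reach a floor of log2 6, so they were compared under 7 of the settings. With that floor, or with dim values set to the floor, 0 members in place of 1 were 2-fold higher. Removing the intensity trend put 3 members in place of 2 at 2-fold lower, with Hlf (-1.24) added to Dbp and Tef. The floor of log2 6 moved the median of the members above the floor to -1.46 and that of the output genes to -2.26, since it removes Hlf and Cry1; averaging probe sets moved the output median to -1.59. With a floor of log2 4 or none, all 10 members were included.

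An alternative chosen after seeing the data took differences relative to the adipocyte marker median. It turned Cry2 to 0.44, Nr1d2 to 0.13, Hlf to 0.21, Clock to 0.41, Csnk1d to 0.83 and Fbxw11 to 0.60. The median of the members became 0.17, of the repressing limb 0.44, of the output genes -0.79 and of the wider genes 0.76. The number of members 2-fold lower became 1 (Dbp) and of wider clock genes 0. By construction it adds the same amount to every gene, and that amount depends on which markers are in the list.

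No paired analysis was possible because each genotype has 1 array. For the same reason no array was left out. Intensity limits what can be said of Arntl, Per1, Per2 and Per3, which lie below the floor.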
